A study of Homo sapiens with 10 samples.

Results

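The 34 genes described here belong to the unfolded protein response of the endoplasmic reticulum (ER). They were taken from a count table of 60651 genes by their gene symbols, and each of the 34 symbols was found. All 34 passed the filter on low counts and were among the 22495 genes tested. By role they are 18 chaperones and foldases of the ER lumen, 9 genes of ER-associated degradation, 5 stress sensors and transcription factors, and 2 genes of protein translocation and vesicle export. RNA came from 10 libraries of cultured human cells, in 5 groups of 2. HT29, an established colorectal cancer cell line, received 10 µM of VXN or the solvent DMSO. The line t-hESC, which the labels class as pluripotent stem cells that were transformed, received 1 µM of BIX, 10 µM of VXN or DMSO. Treatment lasted 48 hours, per the treatment field of the labels, which names DMSO in every sample, so compounds and doses were read from the sample titles. The labels expand neither compound name. VXN is a code, and the name BIX is used for a G9a and GLP histone methyltransferase inhibitor. Each kind of cell is represented by 1 line.

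The unfolded protein response adjusts the folding capacity of the ER to its load of new proteins. Its sensors are the kinase and RNase IRE1 (gene ERN1), which splices XBP1 mRNA, the membrane-bound transcription factor ATF6, which is released by proteolysis, and the kinase PERK (gene EIF2AK3), which slows translation and raises translation of the transcription factor ATF4. Spliced XBP1 and cleaved ATF6 act on genes for chaperones, for disulfide exchange and for ER-associated degradation, which returns misfolded proteins to the cytosol. Gut epithelium is a tissue with a large secretory load, and XBP1 is known there for its part in mucus-secreting and antimicrobial cells. Gene counts sum all transcripts of a gene, so they do not separate spliced from unspliced XBP1.

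Short sequences through which this response is known to act are shown because a search for them separates the genes into those with and without a match. The ER stress response element (ERSE) was searched as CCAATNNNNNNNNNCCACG and the related ERSE-II as ATTGG, any 1 base and CCACG, on both strands. The fixed letters had to match exactly. The windows were RefSeq promoters of the GRCh38.p14 assembly, from 250 bases before to 50 bases after 1 listed start site of each gene. CANX has 4 listed promoters and PDIA4, PDIA6, XBP1 and CREB3L2 have 2 each, and only the first on a primary chromosome was searched. The CANX window lies inside the annotated gene, which starts at 179678656 on chromosome 5. Of the 34 genes, 30 had a promoter in that table, and DERL1, DERL3, PDIA3 and SEC24D had none. ERSE was found in 7 of the 30 promoters (23.3%), against 22 of 27305 promoters in all (0.0806%), where the 22 include the 7. Both motifs were picked because they are known from genes of this response, so these shares are a description and not a test. The copies are printed on the strand that reads as the motif, with 5 flanking bases on each side and the fixed letters of the motif in capitals.
CALR, ERSE, chr19:12938379-12938407: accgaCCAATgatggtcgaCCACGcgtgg
CANX, ERSE, chr5:179698773-179698801: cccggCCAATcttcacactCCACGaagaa
CRELD2, ERSE, chr22:49918549-49918577: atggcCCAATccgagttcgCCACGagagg
ERO1B, ERSE, chr1:236282178-236282206: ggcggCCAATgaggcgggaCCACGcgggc
HSP90B1, ERSE, chr12:103930211-103930239: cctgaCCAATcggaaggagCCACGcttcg
HSP90B1, ERSE, chr12:103930316-103930344: acccaCCAATcgcgccgcaCCACGcaccc
HSPA5, ERSE, chr9:125241386-125241414: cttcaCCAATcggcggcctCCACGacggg
XBP1, ERSE, chr22:28800598-28800626: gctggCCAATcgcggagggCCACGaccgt
HSP90B1 held 2 copies, and the free bases between the capitals differed in every copy.

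ERSE-II was found in 3 of the 30 promoters (10.0%), against 15 of 27305 in all (0.0549%), where the 15 include the 3. The capitals again mark the fixed letters.
HERPUD1, ERSE-II, chr16:56932020-56932040: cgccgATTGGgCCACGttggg
HYOU1, ERSE-II, chr11:119057269-119057289: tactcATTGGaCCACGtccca
HYOU1, ERSE-II, chr11:119057375-119057395: ctgggATTGGaCCACGtcacg
SDF2L1, ERSE-II, chr22:21642109-21642129: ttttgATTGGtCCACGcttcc
HYOU1 held 2 copies. None of the 30 held exact matches to both motifs, so 10 of the 30 held one or the other. Near matches were not counted, such as ccaatgggcggcagccaca in the HERPUD1 window, so a gene without a match may still hold a variant of either motif. The XBP1-binding core TGACGTG stood in 2 of the 30 promoters (6.67%), those of HYOU1, where it overlapped an ERSE-II, and DNAJC10, against 2.0% of all promoters. The CCAAT box alone stood in 25 of the 30 (83.3%), against 35.7% of all promoters.

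The whole 300-base windows of HSPA5 and HERPUD1 are given below since these genes carry the ERSE and the ERSE-II and were among the most changed. The matched element is in capitals and the strand is that of the gene.
HSPA5, chr9:125241294-125241593, minus strand: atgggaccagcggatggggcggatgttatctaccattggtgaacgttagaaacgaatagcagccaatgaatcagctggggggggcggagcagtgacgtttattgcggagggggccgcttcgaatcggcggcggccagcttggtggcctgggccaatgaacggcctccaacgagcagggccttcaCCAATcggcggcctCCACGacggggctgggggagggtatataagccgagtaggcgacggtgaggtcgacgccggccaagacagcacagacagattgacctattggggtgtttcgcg
HERPUD1, chr16:56931892-56932191, plus strand: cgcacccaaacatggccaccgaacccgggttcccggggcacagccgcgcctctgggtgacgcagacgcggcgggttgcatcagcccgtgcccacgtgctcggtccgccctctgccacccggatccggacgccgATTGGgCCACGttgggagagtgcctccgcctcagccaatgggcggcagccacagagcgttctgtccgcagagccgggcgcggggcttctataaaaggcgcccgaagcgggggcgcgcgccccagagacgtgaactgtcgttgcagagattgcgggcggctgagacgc
The HSPA5 element lay 66 to 48 bases before the start of transcription, and the HERPUD1 element lay 117 to 107 bases before it. A match describes letters in a window and is not a measurement of binding.

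**Figure D1:**
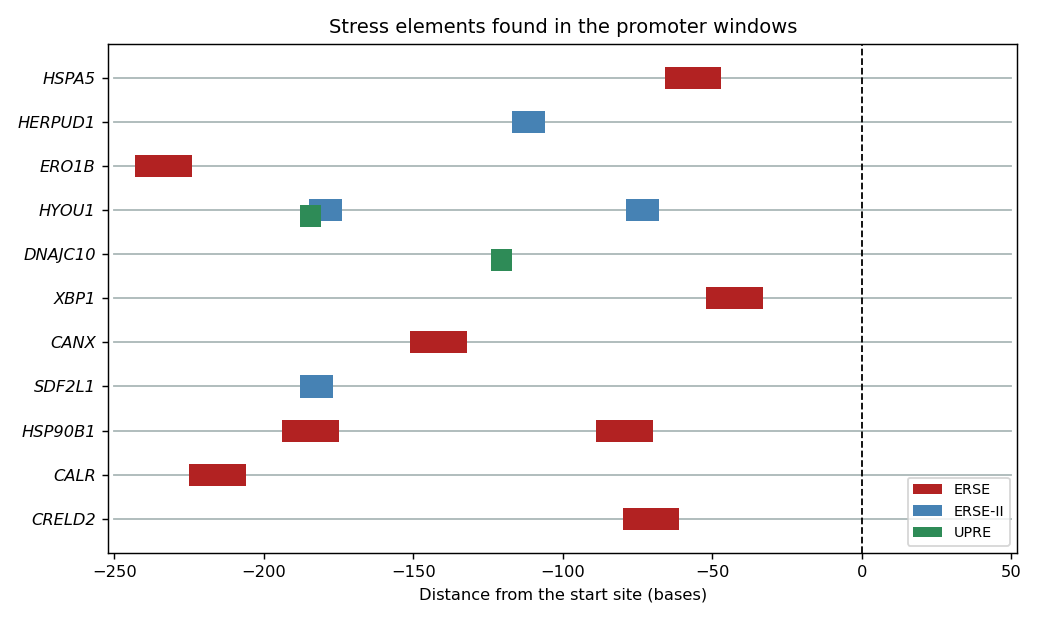
Distance along the promoter (x axis, bases from the start of transcription) of each ERSE, ERSE-II and TGACGTG (UPRE in the legend) match in the 11 members that hold one. HSPA5 and XBP1 have their ERSE closest to the start, and HYOU1 holds 2 ERSE-II copies, 1 of them overlapping TGACGTG.

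Gene counts per library ran from 13137026 to 24492838, where 3 counts, the upper limit for a gene with 0, equal 0.122 to 0.228 CPM in counting error alone (CPM are counts scaled to library size with TMM factors). Log expression correlated at 0.991 to 0.996 within groups and 0.645 to 0.681 between lines. The series gives the 2 libraries of a group as biological replicates without saying how they were separated, so p-values measure only the spread between them. This spread was not far above counting error, with a chi-square per degree of freedom of 1.19 to 1.85 within groups. Beyond counting error, the edgeR fit put the scatter typical of all genes (common BCV) at 0.0207 of their level. Whether small called shifts would recur in separately grown cultures was not tested. The 9 pluripotent cell markers summed to 13.4 to 19.2 CPM in the 4 HT29 libraries and to 5103 to 5770 CPM in the 6 t-hESC libraries. The 9 intestinal epithelial markers summed to 5553 and 5568 CPM in HT29 VXN and to 7067 and 7130 CPM in HT29 DMSO, and to 432 to 498 CPM in t-hESC. The labelled cell types thus matched their markers. The libraries do not mark strand, so reads from overlapping or antisense genes cannot be told apart, and reads of HSPA5, PDIA3 and XBP1 may be shared with their pseudogenes. In the RefSeq annotation of GRCh38.p14 HSPA5 lies on chromosome 9 from 125234853 to 125241343, HERPUD1 on chromosome 16 from 56932142 to 56944864 and ERN1 on chromosome 17 from 64039142 to 64130144, and it lists no other gene that overlaps these 3. Members that overlap another gene there include PDIA3 (ELL3), SYVN1 (MRPL49), DERL2 (MIS12), DERL3 (SMARCB1) and DNAJC10 (PDE1A). Levels are compared between groups and not between genes, because transcript lengths were not used here.

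VXN was followed in HT29 by higher levels of nearly the whole set. Of the 34 genes, 32 (94.1%) rose at an edgeR quasi-likelihood adjusted p under 0.05 and none fell, in a comparison in which 60.0% of all genes were called, 33.0% higher and 26.9% lower. A rise of 2-fold or more was found in 14 of the 34, against 12.2% of all genes. The median log2 fold change was 0.94 for the 34 genes and 0.05 for all genes tested. Together the 34 genes took 1.26% of all gene counts in both HT29 VXN libraries, against 0.687% and 0.683% in the HT29 DMSO libraries. In each of the 32 genes both VXN libraries lay above both DMSO libraries. The share of all genes separated in this way was not counted, so this describes the libraries and adds nothing to the calls. These are bulk libraries, so more transcripts in each cell and more cells that carry them cannot be told apart. Markers of other cell types, at low levels in HT29, differed with the treatment as well. The 8 fibroblast and stromal markers summed to 9.75 and 7.55 CPM in HT29 VXN, with 5 and 6 of 8 above 3 counts, and to 4.29 and 3.29 CPM in HT29 DMSO, with 2 of 8 above 3 counts in each library. Of the 6 tested 4 rose, COL1A1, COL1A2, PDGFRB and THY1, while POSTN stood at 0 in every HT29 library and DCN at 0 in both VXN libraries. Of the 9 pluripotent markers 4 rose and 1 fell, and of 8 intestinal markers tested 2 rose and 3 fell. In t-hESC the stromal list summed to 682 to 951 CPM and the pluripotent list to 5103 to 5770 CPM. The count filter used all 5 groups, so markers of these lists may have passed it through t-hESC. Their HT29 calls are therefore given as a description. The part of these markers in the rise of the 34 genes was not tested.

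**Figure D2:**
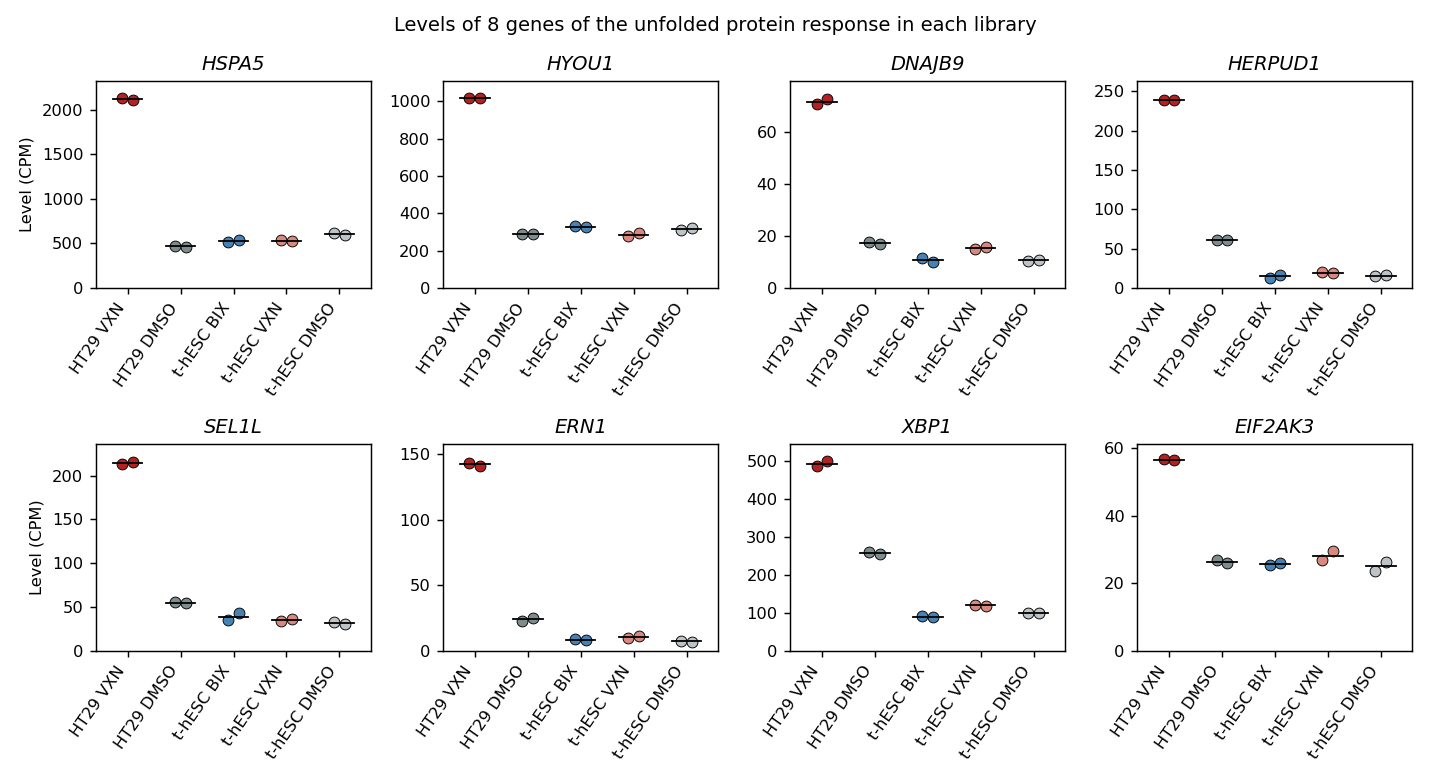
Level in CPM (y axis, linear from 0) of 8 members in every library, where points are libraries, short black lines are means of the 2 libraries and the x axis holds the 5 groups. HSPA5 stands at 2130.0 and 2115 CPM in the HT29 VXN libraries and between 461 and 613 CPM in the other 8.

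Among the chaperones and foldases, 17 of 18 rose, with a median log2 fold change of 0.68. HSPA5 encodes BiP, the Hsp70 chaperone of the ER lumen that also holds the stress sensors inactive. It stood at 2130.0 and 2115 CPM in the VXN libraries, against 469 and 461 CPM in the DMSO libraries. The difference was 4.56-fold, or 2.19 ± 0.029 on the log2 scale (SE, n = 2 libraries a group, edgeR adjusted p = 2.12e-59). Among all genes tested 6.39% had a higher log2 fold change. HYOU1, the nucleotide exchange factor that resets BiP, was at 1018 and 1019 CPM under VXN and at 288 and 289.8 CPM under DMSO, a log2 fold change of 1.82 ± 0.0305. HSP90B1, the Hsp90 paralogue of the ER, had 1379.8 and 1373 CPM under VXN and 879 and 872 CPM under DMSO, a log2 fold change of 0.65 ± 0.0281. All 3 of these chaperones carry an ERSE or ERSE-II, and their rises spread from less than 2-fold to more than 4-fold.

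The J-domain partners that deliver clients to BiP rose with it. DNAJB9 (ERdj4) had 70.7 and 72.6 CPM under VXN, against 17.6 and 16.8 CPM under DMSO, a log2 fold change of 2.06 ± 0.0612. DNAJC3 (p58IPK) had 167 and 166 CPM under VXN and 68.3 and 70.2 CPM under DMSO, a log2 fold change of 1.27 ± 0.0411. DNAJC10 (ERdj5), which also reduces disulfides of proteins bound for degradation, had 505 and 498 CPM under VXN and 221 and 227 CPM under DMSO, a log2 fold change of 1.16 ± 0.0316. These 3 rose more than 2-fold, and their groups were far apart relative to the gap between libraries. DNAJB11 (ERdj3) and SDF2L1, which binds it, had smaller log2 fold changes. DNAJB11 had 113 and 110.0 CPM under VXN and 69.5 and 70.5 CPM under DMSO, a log2 fold change of 0.67 ± 0.0425. SDF2L1 had 29.7 and 27.0 CPM under VXN and 16.9 and 18.6 CPM under DMSO, a log2 fold change of 0.68 ± 0.0744.

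Disulfide chemistry needs isomerases and the ERO1 oxidases that recharge them. P4HB, the founding protein disulfide isomerase, had 1586 and 1599 CPM under VXN, against 824 and 777 CPM under DMSO, a log2 fold change of 0.99 ± 0.0287. Its relatives had smaller log2 fold changes, of 0.46 ± 0.0289 for PDIA3 (ERp57), 0.32 ± 0.0297 for PDIA4 and 0.14 ± 0.029 for PDIA6. ERO1A had 134 and 124 CPM under VXN and 82.9 and 77.9 CPM under DMSO, a log2 fold change of 0.68 ± 0.0424. Both oxidase genes were therefore higher, at very different counts. ERO1B rested on 42 and 37 counts under VXN and 12 and 11 counts under DMSO, which is 1.84 and 1.88 CPM under VXN and 0.494 and 0.470 CPM under DMSO, a log2 fold change of 1.93 ± 0.299. In a fit to the HT29 libraries alone it was also called (1.88, edgeR adjusted p = 1.41e-08). Its level in t-hESC was 5.09 to 6.24 CPM. The pluripotent marker LIN28A stood at 0.350 and 0.862 CPM in HT29 VXN and at 0.0412 and 0 CPM in HT29 DMSO, and at 882 CPM or more in t-hESC. The pluripotent list summed to 15.7 and 19.2 CPM in HT29 VXN, with 8 of 9 markers above 3 counts in each library, and to 14.8 and 13.4 CPM in HT29 DMSO, with 4 and 6 of 9 above 3 counts. The part of those markers in the ERO1B result was not tested.

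The lectin chaperones hold glycoproteins while they fold. CANX (calnexin) had 1237 and 1269 CPM under VXN and 745 CPM in both libraries under DMSO, a log2 fold change of 0.75 ± 0.0277, and CALR (calreticulin) gave 0.33 ± 0.0293. MANF, a small stress-induced protein of the ER that is also secreted, had 84.2 and 87.3 CPM under VXN and 57.1 and 57.8 CPM under DMSO, a log2 fold change of 0.58 ± 0.0471. CRELD2, another secreted ER protein with an ERSE, was not called. Its libraries stood at 19.9 and 20.1 CPM under VXN and 18.1 CPM in both libraries under DMSO, a log2 fold change of 0.14 ± 0.0778 (edgeR adjusted p = 0.119, 95% interval -0.02 to 0.29). The interval includes 0.

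Of the 9 genes of ER-associated degradation 8 rose, with a median log2 fold change of 1.00. The core of the pathway is the ubiquitin ligase HRD1 (gene SYVN1) with its membrane partner SEL1L and the scaffold HERPUD1. HERPUD1 had 239 CPM in both libraries under VXN, against 60.8 and 61.4 CPM under DMSO, a log2 fold change of 1.97 ± 0.042 (edgeR adjusted p = 9.97e-48). SEL1L had 214 and 216 CPM under VXN and 55.2 and 54.3 CPM under DMSO, a log2 fold change of 1.97 ± 0.0436. SYVN1 had 156 and 153 CPM under VXN and 60.8 and 57.4 CPM under DMSO, a log2 fold change of 1.39 ± 0.0427. The 3 genes of this complex were thus all more than 2-fold higher. EDEM1, which trims mannose from misfolded glycoproteins, had 95.6 and 95.1 CPM under VXN and 45.1 CPM in both libraries under DMSO, a log2 fold change of 1.08 ± 0.047. SELENOS, which recruits the extracting ATPase VCP, had 120.4 and 120.1 CPM under VXN and 58.1 and 62.3 CPM under DMSO, a log2 fold change of 1.00 ± 0.0447.

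The derlins form part of the exit channel of the ER membrane and rose in 2 of 3 cases. DERL1 had 392 and 387 CPM under VXN and 224 CPM in both libraries under DMSO, a log2 fold change of 0.80 ± 0.0318. DERL2 rose by 0.38 ± 0.0668 on the log2 scale. DERL3 passed the count filter through t-hESC, and a fit to the HT29 libraries alone left it out. It rested on 5 and 6 counts under VXN and 6 and 12 counts under DMSO, and its log2 fold change of -0.54 ± 0.521 was not called (edgeR adjusted p = 0.399). At this depth no difference in DERL3 was detectable. EDEM2, a relative of EDEM1, had a log2 fold change of 0.17 ± 0.0569 (edgeR adjusted p = 0.00649), and the call was lost without HT29 DMSO replicate 2 (0.09, adjusted p = 0.286), without HT29 VXN replicate 2 (0.14, adjusted p = 0.105), with DESeq2 (0.14, adjusted p = 0.202) and without a count filter (0.14, adjusted p = 0.0551).

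All 5 sensors and transcription factors rose, with a median log2 fold change of 1.10. ERN1, which encodes the sensor IRE1, had 143 and 141 CPM under VXN, against 22.7 and 24.7 CPM under DMSO. Its difference was 2.59 ± 0.052 on the log2 scale (edgeR adjusted p = 3.04e-49), the highest of the 34 genes in this comparison. The IRE1 substrate XBP1 had 487 and 499.9 CPM under VXN and 259 and 254 CPM under DMSO, a log2 fold change of 0.94 ± 0.031. ATF6 had 139.5 and 142 CPM under VXN and 64.7 and 63.8 CPM under DMSO, a log2 fold change of 1.13 ± 0.0429. Sensors of both the IRE1 and the ATF6 branch were thus higher, and the groups did not overlap in any of the 3 genes. EIF2AK3, which encodes PERK, had 56.8 and 56.5 CPM under VXN and 26.9 and 25.9 CPM under DMSO, a log2 fold change of 1.10 ± 0.0588. CREB3L2, a membrane-bound transcription factor of the same build as ATF6, had 61.1 and 61.4 CPM under VXN and 32.4 and 31.2 CPM under DMSO, a log2 fold change of 0.95 ± 0.0541.

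Both genes of translocation and export rose. SEC24D, a cargo-selecting subunit of the COPII vesicle coat, had 142 and 141 CPM under VXN, against 37.0 and 32.1 CPM under DMSO, a log2 fold change of 2.03 ± 0.0486. SEC61B, a subunit of the translocation channel, had 75.0 and 73.3 CPM under VXN and 51.4 and 50.2 CPM under DMSO, a log2 fold change of 0.54 ± 0.047. The adjusted p of the 32 calls ran up to 0.00649, that of EDEM2, and the next highest was 2.69e-05, that of PDIA6.

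**Figure D3:**
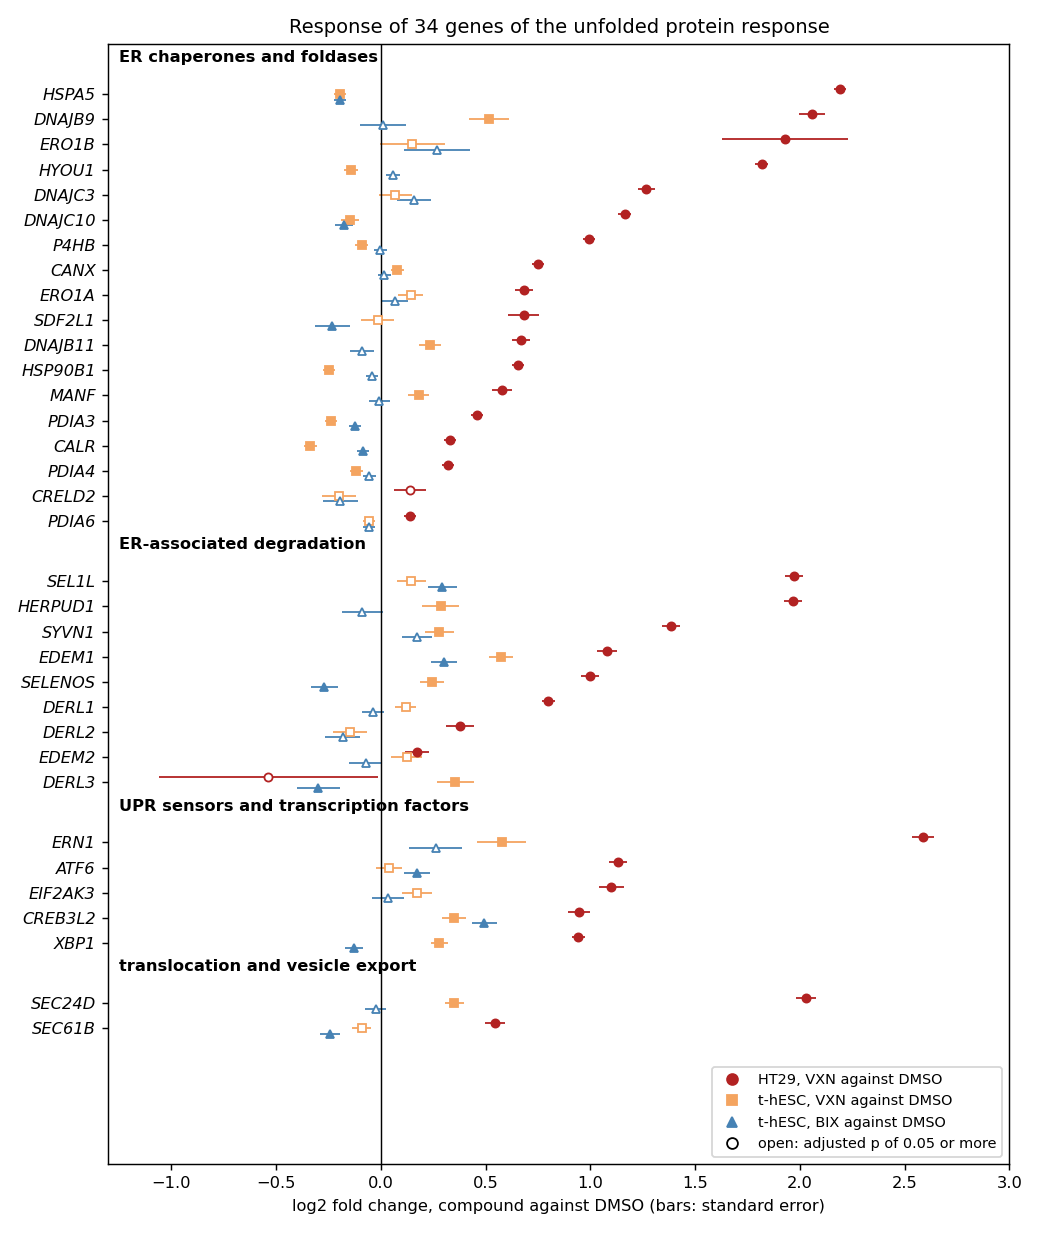
Log2 fold change of each member against DMSO (x axis, bars are standard errors) for VXN in HT29, VXN in t-hESC and BIX in t-hESC, with open symbols for adjusted p of 0.05 or more. The HT29 points lie right of 0 for every gene but DERL3, and the t-hESC points lie between -0.34 and 0.58.

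Other genes of the same pathways were counted from lists of their own. Of 23 further folding genes tested, 19 rose and 2 fell in HT29 VXN, beside 33.0% higher and 26.9% lower of all genes. The highest-ranked by p were QSOX1 (1.02 ± 0.0389), DNAJC1 (1.16 ± 0.0619), FKBP11 (1.23 ± 0.0708) and SIL1 (1.31 ± 0.0771), the last of these another exchange factor of BiP. Of 22 further degradation genes 16 rose and 4 fell. Of 24 further translocation and signal peptide genes 19 rose and 3 fell, and SEC61A1, the channel subunit itself, rose by 1.30 ± 0.03. Of 19 further COPII and ER export genes 17 rose and none fell, with SEC24A at 0.99 ± 0.0459 and SEC31A at 0.64 ± 0.0339. The medians of these 4 lists were 0.44, 0.34, 0.33 and 0.46 on the log2 scale, below that of the 34 genes and above that of all genes.

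The genes downstream of PERK and ATF4 were in a list of 22 further signalling genes. Of these 12 rose (54.5%) and 7 fell (31.8%), beside 33.0% higher and 26.9% lower of all genes. Log2 fold changes in the list ran from -1.24 to 3.56, with a median of 0.21. The genes named next all rose, and the 7 that fell are not named. DDIT3, which encodes the stress factor CHOP, had 209 and 218 CPM under VXN, against 19.2 and 16.9 CPM under DMSO, a log2 fold change of 3.56 ± 0.053. ATF3 (3.33 ± 0.0541), PPP1R15A (2.82 ± 0.037) and TRIB3 (2.49 ± 0.0347) were the other 3 with the smallest p, and PPP1R15A encodes the phosphatase subunit that restarts translation. ATF4 itself, which is controlled largely in translation, had 500.4 and 501 CPM under VXN and 407 and 387 CPM under DMSO, a log2 fold change of 0.34 ± 0.03. Of 8 secretory genes of the intestine 3 rose and 3 fell, 37.5% each, beside 33.0% higher and 26.9% lower of all genes. KLF4 (2.53 ± 0.0596) and SPDEF (0.78 ± 0.0638) rose. AGR2, an isomerase needed for mucin, also rose, by 0.46 ± 0.0308, and the goblet cell peptide TFF3 had a log2 fold change of -3.88 ± 0.272.

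**Figure D4:**
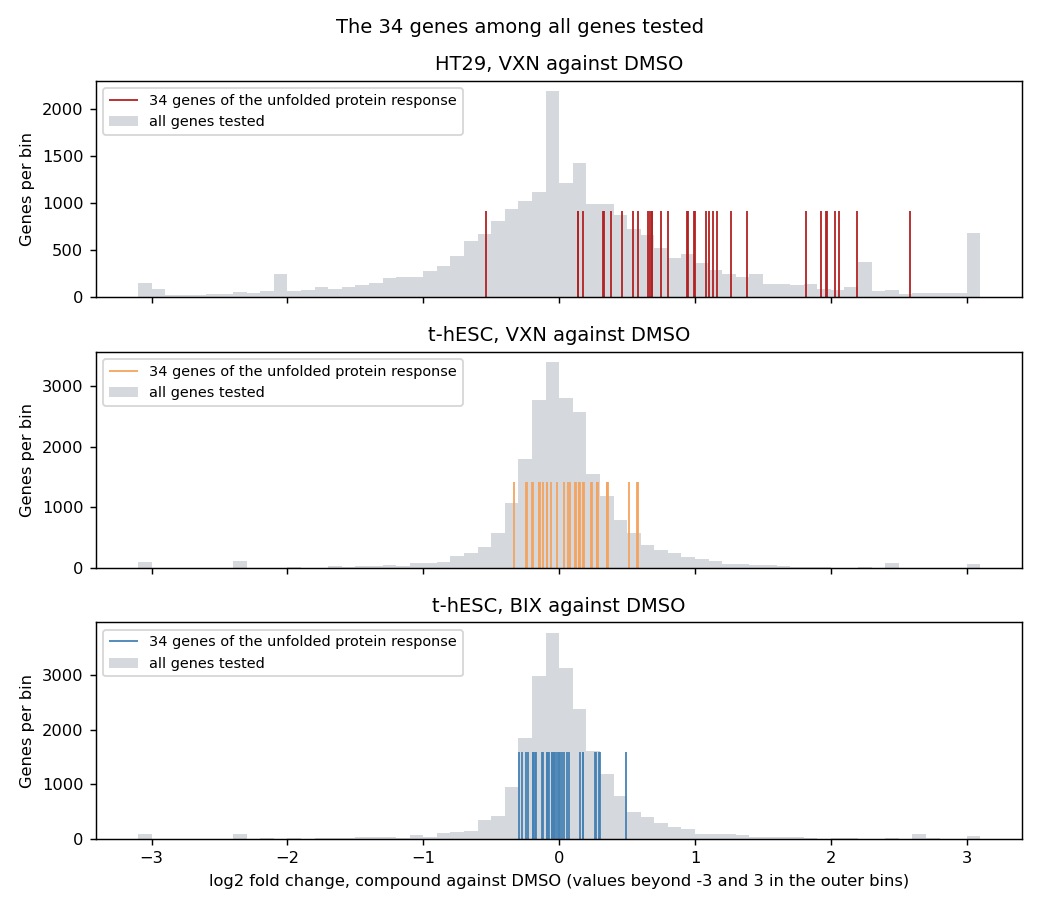
Distribution of log2 fold changes of all 22495 genes tested (x axis, bins of 0.1; y axis, genes per bin) for VXN in HT29, VXN in t-hESC and BIX in t-hESC against DMSO, with the 34 members as vertical lines whose height has no meaning. In HT29 the members' median is 0.94 against 0.05 for all genes, in t-hESC under VXN it is 0.12 against 0.00, and under BIX it is -0.04 against 0.00.

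In t-hESC the same dose of VXN was followed by small changes in both directions. Of the 34 genes 13 rose (38.2%) and 8 fell (23.5%), in a comparison in which 29.0% of all genes were called, 14.5% higher and 14.6% lower. None changed 2-fold, and log2 fold changes ran from -0.34 to 0.58, with a median of 0.12. By role, 8 of 18 chaperones and foldases fell and 4 rose. Of 9 degradation genes 5 rose and none fell, and of 5 sensors and transcription factors 3 rose and none fell. The 34 genes took 0.634% and 0.626% of gene counts in the VXN libraries and 0.670% and 0.668% in the DMSO libraries. Markers moved here too. The pluripotent markers summed to 5127 and 5103 CPM in the VXN libraries and to 5770 and 5677 CPM in the DMSO libraries, and 5 of 9 fell and 1 rose. The fibroblast and stromal markers summed to 949.5 and 951 CPM under VXN and to 683 and 682 CPM under DMSO, with 5 of 8 markers above 3 counts in each VXN library and 6 of 8 in each DMSO library. Of the 6 tested 1 rose, THY1 (0.54 ± 0.0306), which pluripotent cells also carry, PDGFRB and POSTN fell, and DCN and LUM stood at 0 in both VXN libraries. The part of these markers in the changes of the 34 genes was not tested.

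The 8 chaperones and foldases that fell in t-hESC changed by small amounts. HSPA5 had 535 and 523 CPM under VXN, against 613 and 598 CPM under DMSO, a log2 fold change of -0.19 ± 0.0296 (edgeR adjusted p = 2.15e-07). CALR was the member with the lowest value, at 605 and 612 CPM under VXN and 777 and 759 CPM under DMSO, a log2 fold change of -0.34 ± 0.0289 (edgeR adjusted p = 3.89e-15). HSP90B1 (-0.25 ± 0.0282) and PDIA3 (-0.24 ± 0.0299) also fell. HYOU1 (-0.14 ± 0.0328), DNAJC10 (-0.15 ± 0.0412), PDIA4 (-0.12 ± 0.031) and P4HB (-0.09 ± 0.0308) fell as well, and the P4HB call was lost without t-hESC DMSO replicate 2 (-0.07, adjusted p = 0.189). In these 8 genes both VXN libraries lay below both DMSO libraries, a description given without the share of all genes that do so.

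The 4 chaperone genes that rose in t-hESC were DNAJB9, DNAJB11, MANF and CANX. DNAJB9 had 14.8 and 15.7 CPM under VXN, against 10.4 and 10.9 CPM under DMSO, a log2 fold change of 0.52 ± 0.097 (edgeR adjusted p = 1.78e-05). DNAJB11 gave 0.23 ± 0.0519, MANF 0.18 ± 0.0496 and CANX 0.08 ± 0.0302. These last calls depended on single libraries. DNAJB11 was not called without t-hESC DMSO replicate 2 (0.17, adjusted p = 0.0509), and MANF was not called without t-hESC DMSO replicate 1 (0.15, adjusted p = 0.0619) or t-hESC VXN replicate 1 (0.10, adjusted p = 0.249). The CANX call was lost without each of 7 libraries, that is all but the BIX libraries and t-hESC VXN replicate 1, with log2 fold changes of 0.07 to 0.08 and adjusted p of 0.0546 to 0.268, and with upper-quartile factors (0.06, adjusted p = 0.167) and no count filter (0.07, adjusted p = 0.187).

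The degradation genes and sensors called in t-hESC all rose. EDEM1 had 53.6 and 53.2 CPM under VXN, against 37.5 and 34.4 CPM under DMSO, a log2 fold change of 0.57 ± 0.0572 (edgeR adjusted p = 8.79e-13). ERN1 had 9.63 and 10.9 CPM under VXN and 7.20 and 6.64 CPM under DMSO, a log2 fold change of 0.58 ± 0.117 (edgeR adjusted p = 6.29e-05). XBP1 had 122 and 117 CPM under VXN and 98.2 and 98.4 CPM under DMSO, a log2 fold change of 0.28 ± 0.041. With DNAJB9, EDEM1 and ERN1 were the members past 0.5 on the log2 scale here. SYVN1 (0.28 ± 0.0685), SELENOS (0.24 ± 0.0583), DERL3 (0.36 ± 0.0885), CREB3L2 (0.35 ± 0.0575) and SEC24D (0.35 ± 0.0463) also rose. DERL3 was not called with DESeq2 (0.36, adjusted p = 0.0683), and SELENOS was not called without t-hESC VXN replicate 1 (0.16, adjusted p = 0.0782).

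HERPUD1 had 19.9 and 18.2 CPM under VXN and 15.0 and 16.2 CPM under DMSO in t-hESC, a log2 fold change of 0.29 ± 0.0878 (edgeR adjusted p = 0.00879). The call was lost without t-hESC DMSO replicate 1 (0.23, adjusted p = 0.11) or t-hESC VXN replicate 1 (0.22, adjusted p = 0.126). ATF6 had 37.8 and 42.2 CPM under VXN and 40.3 and 37.8 CPM under DMSO and was not called (0.04 ± 0.0607, edgeR adjusted p = 0.704, 95% interval -0.08 to 0.16). EIF2AK3 had 26.7 and 29.7 CPM under VXN and 23.6 and 26.3 CPM under DMSO and was not called either (0.17 ± 0.0723, edgeR adjusted p = 0.063). EIF2AK3 was called without t-hESC DMSO replicate 2 (0.25, adjusted p = 0.0402), without t-hESC VXN replicate 1 (0.25, adjusted p = 0.0236) and at a minimum count of 50 (0.18, adjusted p = 0.047), and its log2 fold change was lowest without t-hESC VXN replicate 2 (0.09, adjusted p = 0.525) and without t-hESC DMSO replicate 1 (0.10, adjusted p = 0.493). Among the further signalling genes 8 of 22 rose and 4 fell, with TRIB3 at 0.63 ± 0.0703, PPP1R15A at 0.58 ± 0.0675 and ATF3 at 0.57 ± 0.0687 on the log2 scale. DDIT3 had 8.67 and 8.80 CPM under VXN and 4.62 and 5.89 CPM under DMSO, a log2 fold change of 0.72 ± 0.134, and ATF4 gave 0.08 ± 0.0304 (edgeR adjusted p = 0.0456). Of the other lists, further folding genes gave 4 higher and 6 lower of 23, degradation genes 3 and 3 of 22, translocation genes 6 and 3 of 24, and COPII genes 8 and 2 of 19, beside 14.5% higher and 14.6% lower of all genes. The counts of the degradation list are at that background.

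The difference between the lines in their response to VXN was tested as the VXN effect in HT29 minus that in t-hESC. It was positive and called in 32 of the 34 genes and negative in none that passed, against 22.9% and 20.3% of all genes (43.2% called in all). In 13 of the 34 the difference was 2-fold or more, against 8.09% of all genes. HSPA5 had the largest difference of the 34, 2.39 ± 0.0412 on the log2 scale (edgeR adjusted p = 1.22e-51). ERN1 (2.01 ± 0.135), HYOU1 (1.96 ± 0.0447), SEL1L (1.83 ± 0.0813) and ERO1B (1.78 ± 0.34) followed. EDEM2 and DERL3 were the 2 not called, at 0.05 ± 0.0938 and -0.89 ± 0.53. CRELD2 was called in this test (0.34 ± 0.112, edgeR adjusted p = 0.0107) though in neither line alone, and lost the call without t-hESC DMSO replicate 2 (0.30, adjusted p = 0.0583), without t-hESC VXN replicate 1 (0.28, adjusted p = 0.0635) and with DESeq2 (0.30, adjusted p = 0.168). In t-hESC alone the CRELD2 effect of VXN, -0.20 on the log2 scale (edgeR adjusted p = 0.057), was called lower without t-hESC BIX replicate 1 (-0.20, adjusted p = 0.0437), without t-hESC BIX replicate 2 (-0.20, adjusted p = 0.0357) and with upper-quartile factors (-0.22, adjusted p = 0.0301).

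Directions under VXN were compared gene by gene. The shares of all genes with each pattern were not counted, so the numbers of members are a description. In 8 genes the level rose in HT29 and fell in t-hESC under VXN, and all 8 were chaperones or foldases: HSPA5, HSP90B1, HYOU1, DNAJC10, PDIA3, PDIA4, P4HB and CALR. In 12 genes it rose in both lines, namely 4 chaperones (DNAJB9, DNAJB11, CANX and MANF), 4 degradation genes (HERPUD1, SYVN1, EDEM1 and SELENOS), 3 transcription factors and sensors (XBP1, ERN1 and CREB3L2) and SEC24D. In each of these 12 the rise was larger in HT29 by the test of the difference, with differences from 0.40 ± 0.0684 for MANF to 2.01 ± 0.135 for ERN1. The t-hESC calls of P4HB, DNAJB11, CANX, MANF, HERPUD1 and SELENOS were each lost under some alternative, as given above.

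BIX at 1 µM in t-hESC was followed by small changes, more of them downward. Of the 34 genes 4 rose (11.8%) and 9 fell (26.5%), in a comparison in which 23.1% of all genes were called, 10.9% higher and 12.2% lower. No change reached 0.5 on the log2 scale. The pluripotent markers summed to 5696 and 5608 CPM under BIX and to 5770 and 5677 CPM under DMSO, with 4 of 9 higher and 2 lower, and the fibroblast and stromal markers summed to 847 and 805 CPM under BIX and to 683 and 682 CPM under DMSO, with 3 of 6 tested higher and none lower. Their part in the changes of the 34 genes was not tested. CREB3L2 had 55.6 and 56.7 CPM under BIX, against 38.0 and 41.4 CPM under DMSO, a log2 fold change of 0.49 ± 0.0581 (edgeR adjusted p = 3.81e-10), the highest of the 34. EDEM1 (0.30 ± 0.0611), SEL1L (0.29 ± 0.0685) and ATF6 (0.17 ± 0.0615) also rose. The SEL1L call was lost without t-hESC BIX replicate 2 (0.14, adjusted p = 0.221). The ATF6 call, on 45.1 and 42.7 CPM under BIX and 40.3 and 37.8 CPM under DMSO, was lost without t-hESC DMSO replicate 2 (0.11, adjusted p = 0.369), without t-hESC BIX replicate 1 (0.13, adjusted p = 0.281), with DESeq2 (0.19, adjusted p = 0.0776) and with no count filter (0.16, adjusted p = 0.0978).

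The 9 that fell under BIX were HSPA5, DNAJC10, SDF2L1, PDIA3, CALR, DERL3, SELENOS, XBP1 and SEC61B. HSPA5 had 519.5 and 538 CPM under BIX, against 613 and 598 CPM under DMSO, a log2 fold change of -0.20 ± 0.0299 (edgeR adjusted p = 3.77e-07). XBP1 had 91.1 and 88.7 CPM under BIX and 98.2 and 98.4 CPM under DMSO, a log2 fold change of -0.13 ± 0.044 (edgeR adjusted p = 0.0259). The groups did not overlap in either gene. SELENOS (-0.27 ± 0.0647) and SEC61B (-0.24 ± 0.0481) kept their calls under each of the alternatives tried, as did HSPA5. The other 6 lost the call without single libraries, and some of them also with all libraries kept. DNAJC10 (-0.17 ± 0.0425) and PDIA3 (-0.12 ± 0.0301) lost it without t-hESC BIX replicate 1, at -0.13 and -0.08. SDF2L1 (-0.23 ± 0.0827), CALR (-0.08 ± 0.0289) and XBP1 lost it without t-hESC DMSO replicate 1, at -0.19, -0.07 and -0.13, or without t-hESC BIX replicate 2, at -0.13, -0.07 and -0.11. XBP1 also lost it without t-hESC DMSO replicate 2 (-0.14). DERL3 (-0.30 ± 0.101) lost it without either t-hESC DMSO library (-0.30 and -0.31) or t-hESC BIX replicate 1 (-0.24). With all libraries kept, the DESeq2 adjusted p was 0.19 for SDF2L1 (-0.22), 0.0721 for CALR (-0.07), 0.229 for DERL3 (-0.28) and 0.0954 for XBP1 (-0.11). CALR and XBP1 also lost the call with DESeq2-type factors, and SDF2L1 in a fit to only the compared groups. Without t-hESC DMSO replicate 1, and likewise with DESeq2, 5 of the 34 genes fell in place of 9. Of members not called, CRELD2 (-0.35, adjusted p = 0.0134) and SYVN1 (0.25, adjusted p = 0.0411) gained a call without t-hESC BIX replicate 1, and DERL2 (-0.29, adjusted p = 0.0373) without t-hESC BIX replicate 2.

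ERN1, HERPUD1, DNAJB9 and EIF2AK3 were among the 21 members not called under BIX. ERN1 had 8.51 and 8.00 CPM under BIX and 7.20 and 6.64 CPM under DMSO (0.26 ± 0.128, edgeR adjusted p = 0.143, 95% interval 0.01 to 0.52). HERPUD1 had 12.9 and 16.8 CPM under BIX and 15.0 and 16.2 CPM under DMSO (-0.09 ± 0.0969, 95% interval -0.28 to 0.11), and DNAJB9 had 11.4 and 9.98 CPM under BIX and 10.4 and 10.9 CPM under DMSO (0.01 ± 0.109, 95% interval -0.21 to 0.23). EIF2AK3 had 25.4 and 25.9 CPM under BIX and 23.6 and 26.3 CPM under DMSO (0.03 ± 0.0763, 95% interval -0.12 to 0.19). The ERN1 interval lies just above 0 while its adjusted p missed the threshold, the other 3 intervals include 0, and none reaches a 2-fold change. Of the further signalling genes 0 of 22 rose and 2 fell by edgeR, ATF4 (-0.17 ± 0.0311) and RTCB (-0.15 ± 0.0393), and DDIT3 was not called (0.04 ± 0.156). Further translocation genes gave 0 higher and 10 lower of 24, degradation genes 3 and 8 of 22, folding genes 3 and 4 of 23, and COPII genes 4 and 1 of 19, with SEC16A at 0.48 ± 0.0493, beside 10.9% higher and 12.2% lower of all genes.

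VXN and BIX were set against each other directly in t-hESC, at 10 and 1 µM, so compound and dose cannot be told apart. VXN gave the higher level in 12 of the 34 genes and the lower in 5, against 11.6% and 11.2% of all genes (22.7% called in all). Both compounds were measured against the same DMSO libraries. No difference was called for HSPA5, at 535 and 523 CPM under VXN and 519.5 and 538 CPM under BIX, with a 95% interval of -0.06 to 0.06 for the log2 difference. XBP1 was higher under VXN, with 122 and 117 CPM, than under BIX, with 91.1 and 88.7 CPM, a log2 difference of 0.41 ± 0.0436 (edgeR adjusted p = 1.66e-11). SELENOS (0.51 ± 0.0641), DNAJB9 (0.51 ± 0.104), SEC24D (0.37 ± 0.0487), HERPUD1 (0.37 ± 0.0954) and DERL3 (0.65 ± 0.0981) were higher as well. CALR (-0.25 ± 0.0294), HSP90B1 (-0.21 ± 0.0285) and HYOU1 (-0.20 ± 0.0335) were lower under VXN. Several other calls were unstable over the 17 alternatives tried. ERN1 lost its call in 12 of them, P4HB in 6, DERL1 and SEC61B in 5 each, MANF in 3 and PDIA3 in 2. The HERPUD1 call was lost without t-hESC BIX replicate 1 (0.18, adjusted p = 0.293).

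The lines also differed without either compound. Under DMSO 18 of the 34 genes were higher in HT29 than in t-hESC and 13 were lower, in a comparison in which 84.4% of all genes were called, 38.9% higher and 45.6% lower. The 5 highest were HERPUD1, DERL1, DNAJC3, ERN1 and XBP1. HERPUD1 had 60.8 and 61.4 CPM in HT29, against 15.0 and 16.2 CPM in t-hESC, a log2 fold change of 1.97 ± 0.066. ERN1 had 22.7 and 24.7 CPM in HT29 and 7.20 and 6.64 CPM in t-hESC, a log2 fold change of 1.78 ± 0.092. The other 3 gave 1.90 ± 0.0399 for DERL1, 1.85 ± 0.0593 for DNAJC3 and 1.39 ± 0.0365 for XBP1. The 5 lowest were DERL3, ERO1B, SEC24D, CALR and SEC61B. DERL3 had 0.247 and 0.512 CPM in HT29, against 15.9 and 15.8 CPM in t-hESC, a log2 fold change of -5.37 ± 0.19. Since DERL3 passed the count filter through t-hESC, where it is high, its value here and under VXN is given as a description. ERO1B gave -3.39 ± 0.24. HSPA5, too, was lower in HT29, with a log2 fold change of -0.38 ± 0.0293.

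After VXN in both lines, 28 of the 34 genes were higher in HT29 and 4 were lower, against 40.9% and 45.5% of all genes (86.4% called in all). HSPA5 had 2130.0 and 2115 CPM in HT29, against 535 and 523 CPM in t-hESC, a log2 fold change of 2.01 ± 0.0292. ERN1 (3.79 ± 0.0657), HERPUD1 (3.65 ± 0.055), DNAJC3 (3.05 ± 0.0544), SEL1L (2.63 ± 0.0502) and DERL1 (2.58 ± 0.039) were the 5 highest. The 4 lower in HT29 were DERL3 (-6.26 ± 0.202), ERO1B (-1.61 ± 0.185), CALR (-0.20 ± 0.0293) and PDIA6 (-0.15 ± 0.0292). The comparison under DMSO and this one share no library.

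**Figure D5:**
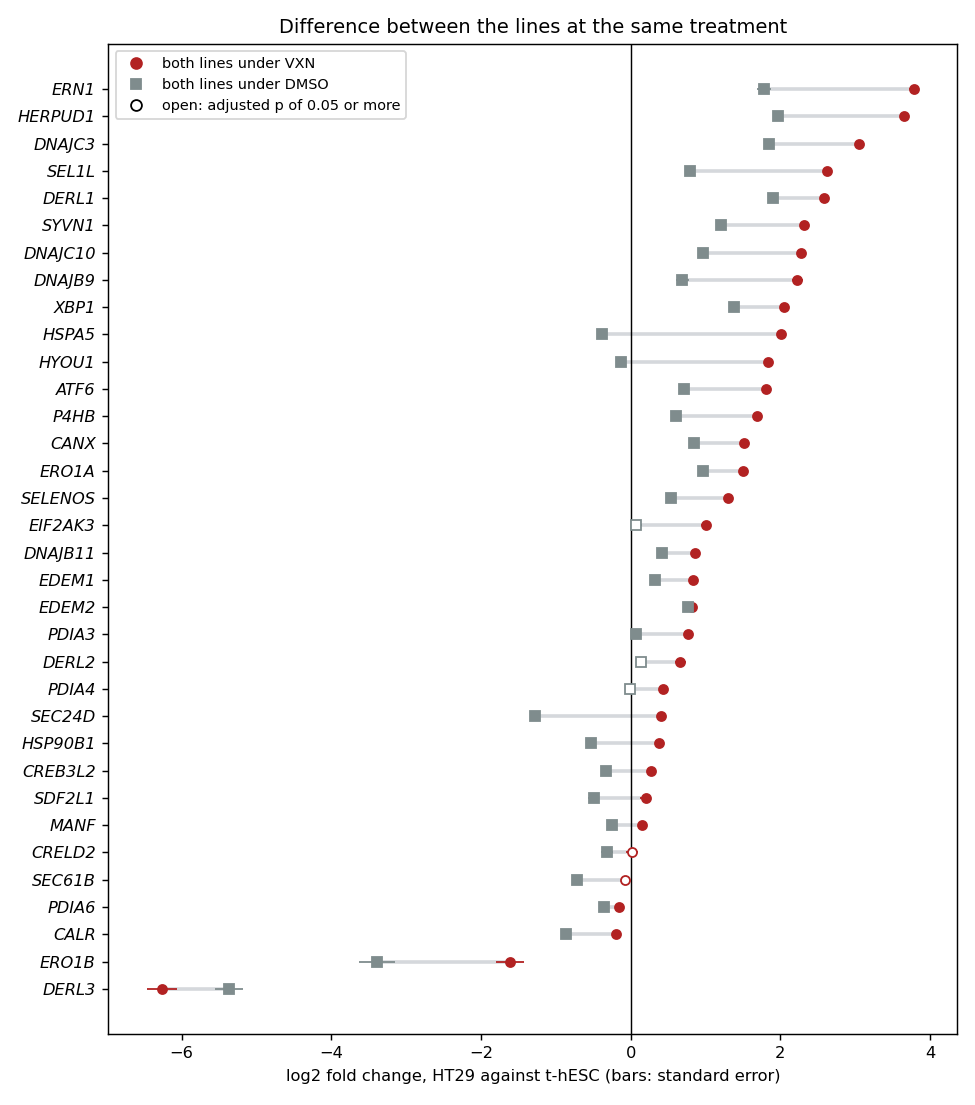
Log2 fold change of HT29 against t-hESC for each member, under VXN and under DMSO, with 0 marking equal levels. HSPA5 stands at 2.01 under VXN and -0.38 under DMSO, and DERL3 lies lowest in both at -6.26 and -5.37.

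Members with and without the promoter elements shown above overlapped in their changes. Of the 10 members with an exact ERSE or ERSE-II match, 9 rose in HT29 VXN with a median log2 fold change of 0.85. Of the 20 members with a promoter and no exact match to either, all 20 rose with a median of 1.00. Members with an element ranged from CRELD2 (0.14) to HSPA5 (2.19). Members without one ranged from PDIA6 (0.14) to ERN1 (2.59). In t-hESC under VXN 3 of the 10 with an element rose and 4 fell, and 8 of the 20 without one rose and 3 fell, beside 14.5% and 14.6% of all genes. Outside the 34 genes, 27 more held an ERSE or ERSE-II in this window, and 15 of them were tested. Of these 15, 5 rose and 4 fell in HT29 VXN, close to the shares of all genes called there (33.0% higher and 26.9% lower), with a median of 0.01. The 5 that rose were FICD, which modifies BiP (1.70 ± 0.107), SERP1, a translocon-associated protein (1.01 ± 0.0313), TRIM5 (0.72 ± 0.0556), NUCB1 (0.39 ± 0.044) and ZNF143 (0.26 ± 0.07). The 4 that fell were SHCBP1 (-2.08 ± 0.0847), PLS3 (-0.73 ± 0.0367), GYS1 (-0.54 ± 0.0486) and SETD3 (-0.14 ± 0.0452). No difference between these sets of genes was tested.

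The authors' deposited tables hold 4 of these comparisons with their own calls. The share of all genes called in them was not counted here, so the numbers of members cannot be set against a background. For VXN in HT29 the authors' deposited table called 26 of the 34 genes higher and none lower at an adjusted p under 0.05, and all 26 were called higher here. The 8 that it did not call were HSP90B1, PDIA3, PDIA4, PDIA6, CALR, CRELD2, EDEM2 and DERL3. For VXN in t-hESC the authors' deposited table called 2 genes, EDEM1 and ERN1, both higher, and for BIX it called CREB3L2, also higher. In the authors' deposited table of HT29 VXN against t-hESC VXN 22 were higher, all called higher here, and 3 were lower. Of these 3, ERO1B and DERL3 were also called lower here. SEC61B was not called here, though it was called lower with both other scalings and at a minimum count of 50. That table did not call 9 members, of which only CRELD2 was not called here either. CALR and PDIA6 were called lower here, and HSP90B1, SDF2L1, PDIA4, MANF, CREB3L2 and SEC24D higher. These tables call fewer of the small changes in t-hESC than the fit used here, and in particular none of the 8 chaperones that fell.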

How the data were processed

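The authors deposited a table of raw counts for 60651 genes and 1181 repeat families, whole numbers with different totals per library, and 4 tables of their own contrasts, which hold log2 fold changes, standard errors and adjusted p-values, per the file headers. Per the submitters' processing notes, DESeq2 1.34.0, STAR, FastQC 0.11.9 and fastp 0.20.1 were used, with GRCh38 and hg38 named as builds; no step is tied to a tool. Neither the annotation nor the program that counted reads is given in the sources used here, which leaves the treatment of reads that fit pseudogenes or overlapping genes unknown. The TruSeq RNA v2 kit named in the labels' protocols does not mark strand. Another 4 columns of that table could be tied to no sample of the series and stayed out. Whether the authors' deposited log2 fold changes were shrunken is not stated, so only their calls and directions are given.

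The model was edgeR 4.0.16 (R 4.3.3) on gene counts, with repeat families left out of library sizes: TMM normalization, filterByExpr at a minimum count of 10, and the robust quasi-likelihood F test over all 10 libraries (5 residual beside 56.7 prior degrees of freedom). A gene is called where its p, adjusted after Benjamini and Hochberg over all 22495 genes, is under 0.05. Standard errors are the log2 fold change divided by the root of F. Promoters and gene positions came from RefSeq, GRCh38.p14, matched by symbol, 1 promoter a symbol on primary chromosomes. The fit was also run on counts simulated from its own estimates, with known changes in far fewer genes than were called here. That run cannot show whether the scaling or the smallest calls hold in these data.

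The 34 genes, the further lists and the tests were chosen with earlier results of these data known. Values per library are given for members called past 0.5 on the log2 scale against DMSO and for HSPA5, HERPUD1, DNAJB9, XBP1, ATF6, ERN1 and EIF2AK3, and the 5 highest and 5 lowest called members between lines are named. Further genes are up to 4 of each list with the smallest p, with ATF4 and DDIT3, and not all are printed. Other members and CRELD2 and DERL3 were added after their values were seen. The alternatives were each library left out in turn, a block for the replicate number, a fit to only the compared groups, minimum counts of 50 or none, DESeq2 1.42.0, and upper-quartile or DESeq2-type factors. Where a group was left with 1 library, it was assumed to vary like the others.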

Additional observations from a re-analysis of the deposited data

Results flagged for a closer look

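The VXN effect differed between HT29 and t-hESC, by the interaction term of the edgeR fit, in 32 of the 34 members. Those that passed with a difference of 2-fold or more, or with opposite directions in the 2 lines, are listed here as the VXN effect in HT29 minus that in t-hESC on the log2 scale. Among chaperones and foldases the difference was 2.39 for HSPA5, 1.96 for HYOU1, 1.78 for ERO1B, 1.54 for DNAJB9, 1.31 for DNAJC10, 1.20 for DNAJC3, 1.08 for P4HB, 0.90 for HSP90B1, 0.70 for PDIA3, 0.67 for CALR and 0.44 for PDIA4. Among degradation genes it was 1.83 for SEL1L, 1.68 for HERPUD1 and 1.11 for SYVN1. The sensors ERN1 and ATF6 gave 2.01 and 1.09, and the coat subunit SEC24D gave 1.68. The VXN libraries of each line were set against the DMSO libraries of their own line, so the 2 effects share no library. Groups of 2 libraries allow no test for an outlying library.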

How the results depend on the processing

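Counts of members called higher kept within 1.5 times their value under each alternative tried, and so did counts of members called lower except for BIX, where 5 in place of 9 were lower with DESeq2 and without t-hESC DMSO replicate 1. With each library left out in turn, HT29 VXN against DMSO gave 31 to 32 higher and 0 lower each time, t-hESC VXN gave 10 to 14 higher and 7 to 9 lower, BIX gave 3 to 4 higher and 5 to 9 lower, VXN against BIX gave 8 to 12 higher and 4 to 5 lower, and the difference of VXN effects gave 31 to 32 positive and 0 negative each time. In the same way HT29 against t-hESC gave 17 to 19 higher and 13 lower each time under DMSO and 27 to 28 higher and 4 lower each time under VXN. With the replicate number as a block, 32 members rose in HT29 VXN, 12 rose and 8 fell in t-hESC VXN, 4 rose and 9 fell under BIX, and 32 differed between the lines, and CANX lost its call in t-hESC VXN (0.08, adjusted p = 0.0511). Deviations of same-numbered libraries correlated at -0.03 to 0.03 over 10 pairs of groups, so no pairing by number was seen. Because the spread within groups was not far above counting error, these correlations cannot exclude one. Of the values of single members, 3919 kept direction and side of the threshold, 95 lost the call, 30 gained one and 1 reversed: PDIA3 in HT29 DMSO against t-hESC DMSO was 0.07 by TMM and -0.039 with upper-quartile factors (adjusted p = 0.212). Those factors moved the median of all genes in that comparison by -0.11, and the cause was not tested. The depth limits DERL3 and ERO1B in HT29, which rest on 5 to 42 counts a library.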
